A study of Mus musculus with 9 samples.

Results

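Glycolysis and glycogen metabolism were followed through 37 genes: glucose transporters, the enzymes of glycolysis with their tissue isoforms, lactate exporters, and the enzymes that build and break down glycogen. A gene was measured when a transcript cluster, the array's unit for 1 transcribed locus, carried its symbol alone in the platform annotation, and a gene with more than 1 such cluster was read from the brighter one. By this rule 34 of the 37 were measured, out of 30142 genes in all, and Gpi1, Pfkfb1 and Eno1 were not measured here. The 34 fell into 10 muscle isoforms, 13 ubiquitous enzymes and transporters, 7 members known as inducible or as myeloid, and 4 isoforms typical of brain or liver.

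The arrays held total RNA of whole neck skin from male C57BL/6 mice, an inbred strain, aged 6 to 8 weeks, in 3 groups of 3 biological replicates. In the urushiol group, allergic contact dermatitis was raised with an oily allergen found in poison ivy. In the oxazolone group it was raised with a synthetic hapten. Either agent was put on the abdomen at 2.0% and, from 5 days later, on the nape at 0.5% in 40 µl of acetone for 5 paintings, the last on day 8, and skin was removed 4 hours after that one. The third group was healthy control skin. Whether control mice were shaved or given acetone, and whether the muscle sheet under the skin was kept in the samples, are not given in the sources used here. All 11 measured keratinocyte markers lay above the median of all clusters on every array, and so did all 18 contractile proteins of skeletal muscle listed as markers.

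Glycolysis splits glucose to pyruvate, and most of its steps are served by several genes whose products differ in tissue and control. Skeletal muscle uses its own transporter, phosphofructokinase, mutase, enolase and glycogen phosphorylase, and stores glucose as glycogen that phosphorylase kinase releases when a fibre contracts. Dividing and inflamed cells, neutrophils among them, rely on transporters and hexokinases that low oxygen and growth signals can induce. Mouse skin carries a thin sheet of skeletal muscle, the panniculus carnosus, beneath its fat layer, so whole skin samples can hold both kinds of gene.

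The stretches of DNA before the gene starts are shown for a muscle isoform and its ubiquitous counterpart, Pgam2 and Pgam1, and for the members that fell and rose furthest against control skin, Pygm and Slc2a1. Each holds 250 bases up to the start, read along the gene's strand from RefSeq for mouse build GRCm38.p6, and capitals mark the E-box CANNTG and the hypoxia response core, ACGTG or GCGTG, on either strand. The E-box is the sequence bound by the muscle regulators of the MyoD family among others, and the core is the sequence bound by hypoxia-inducible factors.
Pgam2, chr11:5803797-5804046, minus strand: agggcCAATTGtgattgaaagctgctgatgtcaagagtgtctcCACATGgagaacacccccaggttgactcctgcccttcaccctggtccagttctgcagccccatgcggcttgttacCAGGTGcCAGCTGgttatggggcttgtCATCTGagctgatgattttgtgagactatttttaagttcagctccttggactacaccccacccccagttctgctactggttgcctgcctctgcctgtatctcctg
Pygm, chr19:6384158-6384407, plus strand: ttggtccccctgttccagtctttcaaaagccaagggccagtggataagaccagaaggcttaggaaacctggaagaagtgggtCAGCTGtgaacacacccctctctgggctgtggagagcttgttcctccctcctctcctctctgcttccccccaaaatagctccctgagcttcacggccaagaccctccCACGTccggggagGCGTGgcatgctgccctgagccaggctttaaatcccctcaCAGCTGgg
Pgam1, chr19:41911621-41911870, plus strand: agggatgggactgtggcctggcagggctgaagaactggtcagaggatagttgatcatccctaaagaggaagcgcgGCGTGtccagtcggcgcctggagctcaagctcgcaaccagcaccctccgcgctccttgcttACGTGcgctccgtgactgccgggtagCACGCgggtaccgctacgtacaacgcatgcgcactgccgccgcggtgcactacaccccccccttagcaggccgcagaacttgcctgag
Slc2a1, chr4:119108495-119108744, plus strand: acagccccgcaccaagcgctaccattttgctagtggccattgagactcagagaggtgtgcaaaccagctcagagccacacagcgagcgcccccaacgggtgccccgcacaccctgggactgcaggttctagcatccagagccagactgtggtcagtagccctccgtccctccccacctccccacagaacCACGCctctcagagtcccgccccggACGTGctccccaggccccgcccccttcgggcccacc
Upstream of Pgam2 lay 5 E-boxes and no hypoxia core, and upstream of Pygm lay 2 E-boxes and 2 cores. Pgam1 had 3 cores and Slc2a1 had 2, with no E-box in either window, and no core in the 4 windows overlapped an E-box. CG pairs numbered 1 before Pgam2 and 4 before Pygm, against 22 before Pgam1 and 13 before Slc2a1. Windows were found for 32 of the 34 measured members, 43 in all. An E-box was present for 9 of 9 muscle isoforms, 9 of 13 ubiquitous members, 2 of 6 inducible or myeloid members and 1 of 4 brain or liver isoforms, against 69.3% of 27025 genes. The hypoxia core was present for 6 of 9 muscle isoforms, 12 of 13 ubiquitous members, 6 of 6 inducible or myeloid members and 3 of 4 brain or liver isoforms, against 41.5% of genes. A gene with several windows counted if any of them held the motif. By window, in the same order of classes, the core was in 8 of 12, 14 of 19, 7 of 7 and 4 of 5. Over all windows it was in 38.6%. A full MEF2 motif, the site of another muscle regulator, was found in no member's window and in 0.592% of genes. A match of letters is a description and no evidence of binding.

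The deposited values are log2 expression values, and all values and differences below are on that scale. They reach past log2 16, the limit of a 16-bit scanner, by a step that the sources used here do not give, so a log2 difference may not equal a log2 ratio of RNA. Members above 16 were Gapdh on all 9 arrays, Eno3 and Pygm on 2 each, and Pdk4 and Pgk1 on 1 each. Control array 3 stood apart from the other control arrays: its Pearson correlation over all genes was 0.979 with control array 1 and 0.978 with control array 2, against 0.995 between those. On control array 3 the 10 muscle isoforms differed from the mean of control arrays 1 and 2 by -4.08 to -1.63, and 9 of the 13 ubiquitous members also lay below. Its mean over 19 hair follicle markers was 3.41 above the control mean, where control arrays 1 and 2 had -1.76 and -1.65. Differences from control are therefore also given without that array for the member classes and for some members. Those of the isoform pairs, the marker lists and the other pathway genes are given with it only.

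Against control skin, the enzymes of muscle glycolysis and glycogen turnover were lower in both dermatitis groups, while the transporter gene Slc2a1, the mutase gene Pgam1, the monocarboxylate transporter gene Slc16a1 and the hexokinase gene Hk3 were higher. Differences were tested with limma over all 30142 genes, and a gene was called at an adjusted p under 0.05. In urushiol-challenged skin 6 of the 34 members rose and 14 fell, where 9.96% of all genes rose and 6.43% fell. In oxazolone-challenged skin 4 rose and 13 fell, where 9.63% of all genes rose and 6.92% fell. Many of the 30142 genes are dim. A fit of the 19084 genes that reached the array median on at least 1 array held 33 of the members. In it 3641 genes rose and 2314 fell with urushiol, and 3674 rose and 2507 fell with oxazolone. The members rose no more often than these brighter genes, while they fell more often. In all, 20 members were called with urushiol and 17 with oxazolone, beside 16.4% and 16.6% of all genes. The median difference of the members was -0.25 with urushiol and -0.41 with oxazolone, beside 0.04 and 0.06 over all genes. Values of the 3 arrays did not overlap those of control for 9 members on the higher side and 14 on the lower side with urushiol (21.1% and 11.8% of all genes), and for 7 and 14 with oxazolone (21.3% and 11.5%). Both comparisons use the same control arrays. In whole tissue, fewer cells of a type and less RNA per cell cannot be told apart.

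**Figure D1:**
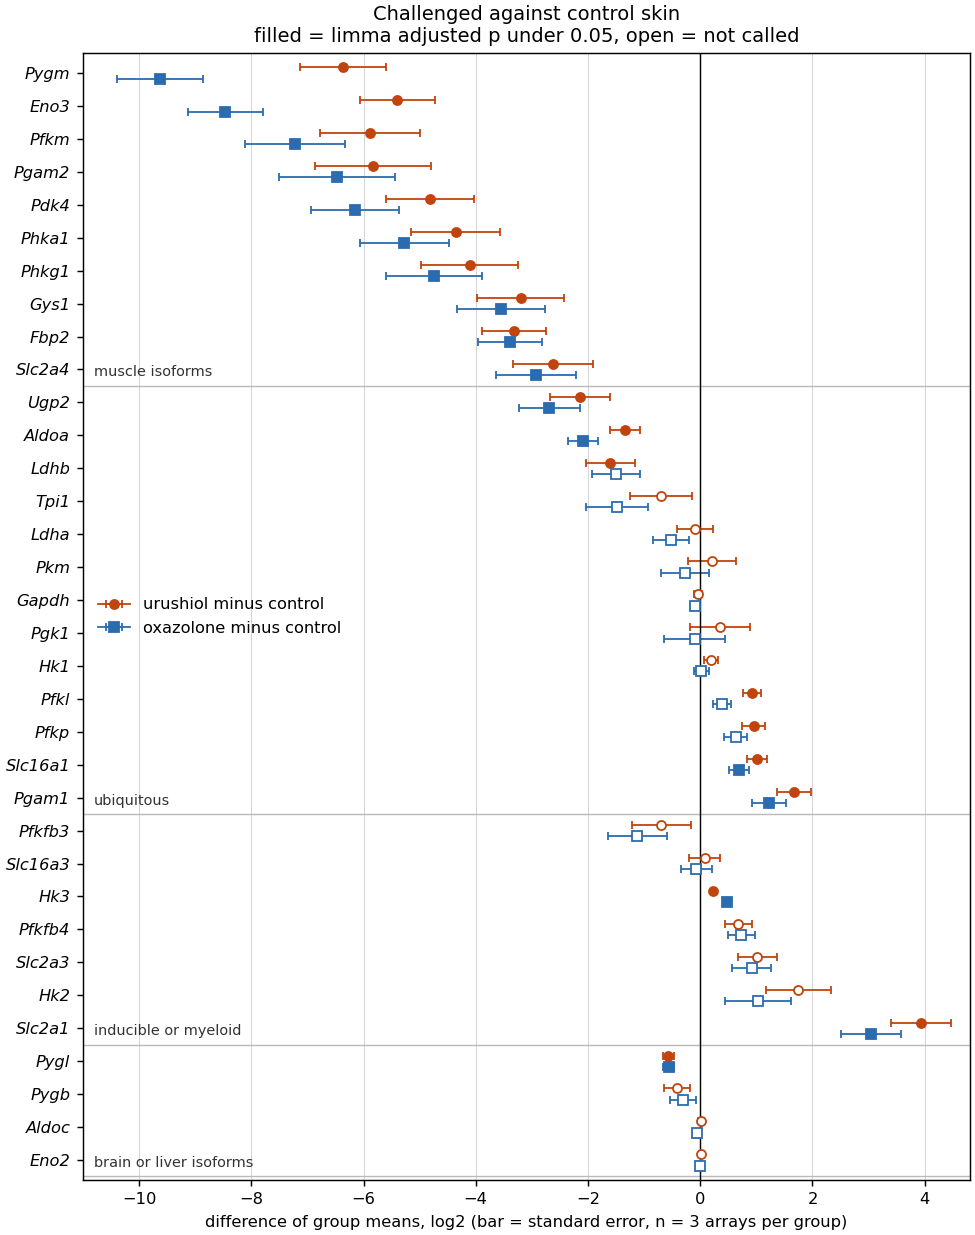
Difference of group means from control on the log2 scale (horizontal axis) for each of the 34 measured members (vertical axis), with standard errors, for urushiol (circles) and oxazolone (squares), filled where called. The 10 muscle isoforms lie between -9.63 and -2.62 and are all filled, and Slc2a1 is furthest to the right at 3.93 with urushiol and 3.04 with oxazolone.

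All 10 measured muscle isoforms fell in both groups. Their median difference was -4.59 in urushiol-challenged skin and -5.71 in oxazolone-challenged skin. Without control array 3 all 10 were still called lower in each comparison, between -7.19 and -3.56 with urushiol (median -5.39) and between -10.43 and -3.87 with oxazolone (median -6.51). With the replicate number as a block in all 9 arrays, the urushiol calls of Slc2a4 (adjusted p = 0.0596) and Gys1 (adjusted p = 0.0528) were lost, and the other 8 muscle isoforms were still called in both comparisons.

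Among the glycogen enzymes of muscle, Pygm had the largest difference. Pygm, the phosphorylase that cuts glucose from muscle glycogen, had values of 10.00, 9.96 and 11.14 in urushiol skin, 7.07, 6.19 and 8.06 in oxazolone skin, and 17.49, 17.58 and 15.15 in control skin. The 3 groups did not overlap, and oxazolone skin was lowest. Its difference from control was -6.37 ± 0.77 (SE, n = 3 arrays per group) with urushiol (limma adjusted p = 0.00357) and -9.63 ± 0.77 with oxazolone (adjusted p = 0.00101). Phosphorylase kinase switches this enzyme on, and 2 of its subunits were members. Phka1, the muscle regulatory alpha subunit, had 7.80, 7.60 and 7.80 with urushiol, 6.85, 6.68 and 6.95 with oxazolone and 13.29, 13.01 and 9.99 in control skin. Phkg1, the muscle catalytic subunit, had 6.27, 6.04 and 6.27 with urushiol, 5.35, 5.57 and 5.77 with oxazolone and 11.47, 11.41 and 8.03 in control skin. For both genes the lowest control value, on array 3, was still above every value of the dermatitis groups, and for Phka1 every urushiol value was above every oxazolone value. Phka1 fell by 4.36 with urushiol (adjusted p = 0.0135) and by 5.27 with oxazolone (adjusted p = 0.00763), with a standard error of 0.79. On oxazolone arrays 1 and 2 Phkg1 lay below the median of all clusters, at the dim end of the scale, where values have no firm order and the size of a fall is uncertain. Phkg1 fell by 4.11 with urushiol (adjusted p = 0.0214) and by 4.74 with oxazolone (adjusted p = 0.0139), with a standard error of 0.86. The Phkg1 call with urushiol was lost on leaving out control array 1 or 2 or any urushiol array, with the adjusted p reaching 0.0717 (control array 2), and the Phka1 call with urushiol without control array 2 (adjusted p = 0.0513).

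On the side of synthesis, Gys1, the glycogen synthase of muscle, had 7.49, 7.85 and 7.83 with urushiol, 7.43, 7.15 and 7.54 with oxazolone and 11.93, 11.98 and 8.86 in control skin. Urushiol and oxazolone values overlapped each other and lay below all control values. The differences were -3.20 with urushiol (adjusted p = 0.035) and -3.55 with oxazolone (adjusted p = 0.0258), with a standard error of 0.78. Both Gys1 calls depended on the set of arrays: with urushiol the call was lost on leaving out any single array but control array 3 (adjusted p up to 0.11, control array 2). With oxazolone it was lost without control array 1 or 2, any oxazolone array or urushiol array 3 (adjusted p up to 0.0822, control array 2). Ugp2 makes UDP-glucose, the sugar donor of glycogen synthase, and is expressed in many tissues. It had 10.15, 10.03 and 10.15 with urushiol, 9.71, 9.28 and 9.71 with oxazolone, and 13.19, 12.69 and 10.88 in control skin. Its differences were -2.14 with urushiol (adjusted p = 0.0376) and -2.69 with oxazolone (adjusted p = 0.0191), with a standard error of 0.54. Leaving out any single array but control array 3 ended the Ugp2 call with urushiol (adjusted p up to 0.124, control array 2), and leaving out control array 1 or 2 or any oxazolone array ended the one with oxazolone (up to 0.0694, control array 2). The urushiol call of Ugp2 was also lost with the replicate block in all 9 arrays (adjusted p = 0.0524).

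In the glycolytic chain, the muscle forms of 3 steps fell. Pfkm, the muscle phosphofructokinase at the committed step, had 8.50, 8.89 and 9.03 with urushiol, 7.37, 7.17 and 7.86 with oxazolone and 15.91, 15.80 and 12.35 in control skin. Pgam2, the muscle phosphoglycerate mutase, had 6.64, 6.23 and 6.72 with urushiol, 6.26, 5.65 and 5.77 with oxazolone and 13.83, 13.61 and 9.64 in control skin. Eno3, the muscle enolase, had 11.26, 10.90 and 11.77 with urushiol, 8.21, 7.62 and 8.92 with oxazolone and 17.58, 17.37 and 15.18 in control skin. Control values lay above all others for the 3 genes, and for Pfkm and Eno3 the urushiol values also lay above all oxazolone values, while Pgam2 overlapped between the allergens. With urushiol the differences from control were -5.88 ± 0.89 for Pfkm (adjusted p = 0.00759), -5.83 ± 1.03 for Pgam2 (adjusted p = 0.0125) and -5.40 ± 0.67 for Eno3 (adjusted p = 0.00371). With oxazolone they were -7.22 ± 0.89 (adjusted p = 0.00396), -6.47 ± 1.03 (adjusted p = 0.00944) and -8.46 ± 0.67 (adjusted p = 0.000939) in the same order of genes. These calls held without any single array. In a fit of only the 6 arrays of the 2 groups compared, the Pgam2 call with urushiol was lost (adjusted p = 0.0596).

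**Figure D2:**
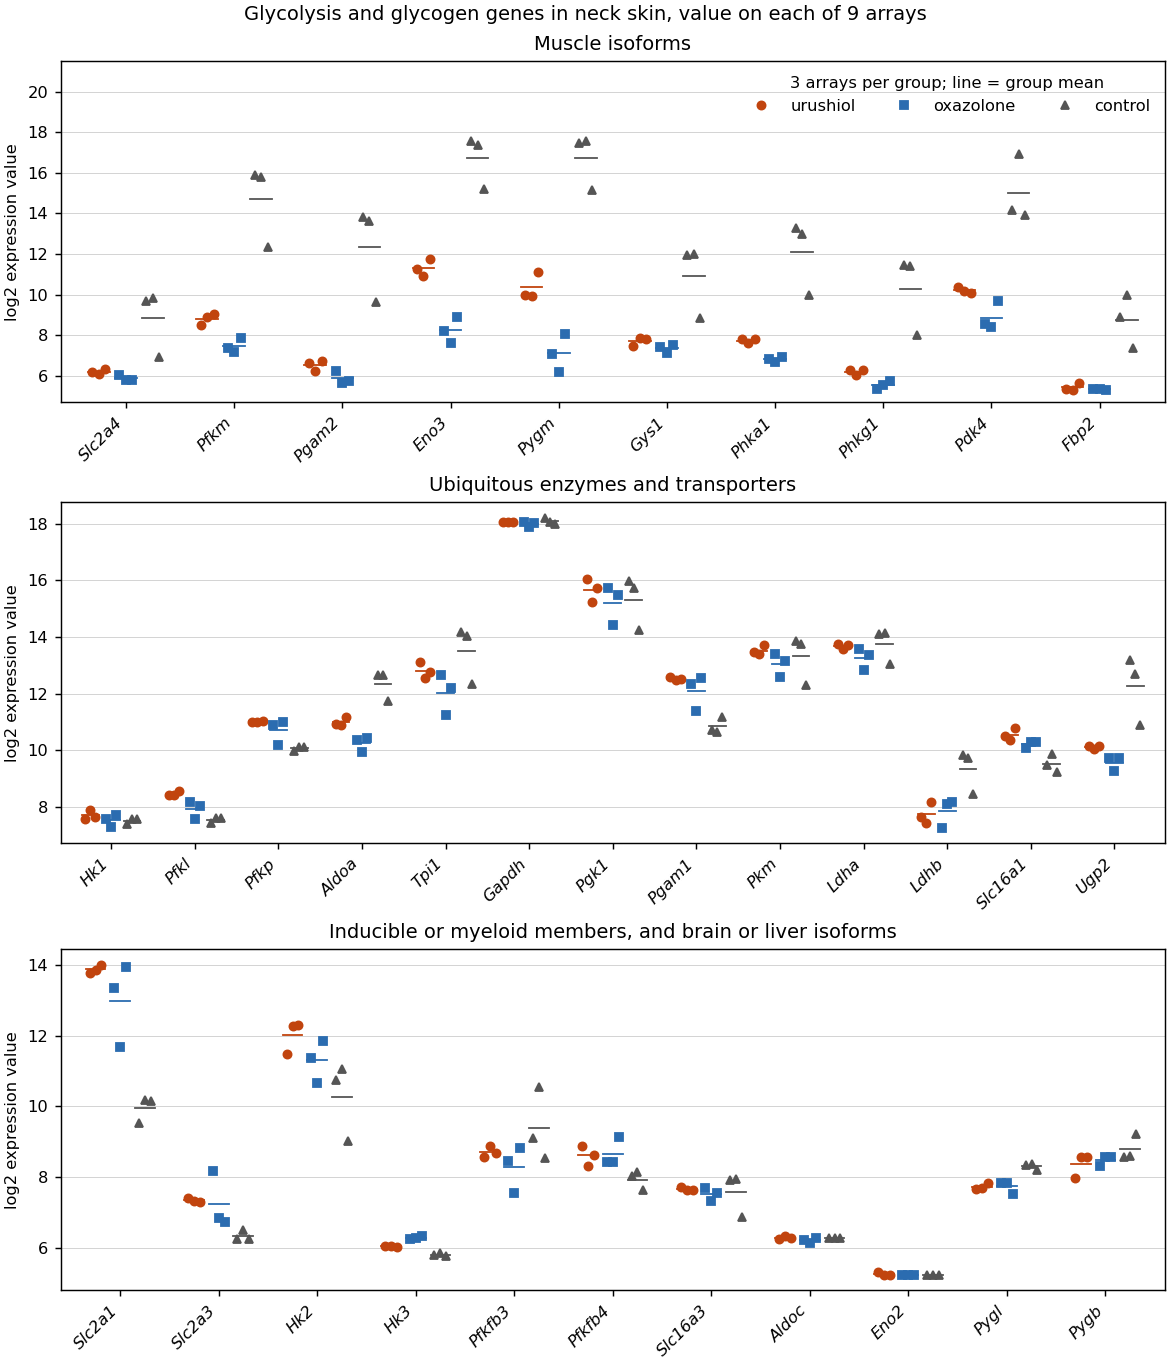
Log2 expression value (vertical axis) of each of the 34 measured members (horizontal axis) on every array, with urushiol, oxazolone and control side by side and a line at each group mean of 3 arrays. The muscle isoforms in the upper panel have control values far above the other groups, with control array 3 as the lowest control point for each of them, whereas Slc2a1 in the lower panel has every urushiol and oxazolone value above every control value.

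Fuel entry and fuel choice in muscle followed the same direction. Slc2a4 encodes GLUT4, the insulin-responsive glucose transporter of muscle and fat. Its values were 6.18, 6.12 and 6.32 with urushiol, 6.07, 5.80 and 5.82 with oxazolone and 9.69, 9.85 and 6.95 in control skin, where array 3 lay nearest to the dermatitis groups. The differences were -2.62 with urushiol (adjusted p = 0.0465) and -2.93 with oxazolone (adjusted p = 0.0336), with a standard error of 0.71. The Slc2a4 calls were lost on leaving out any single array other than control array 3, where the adjusted p reached 0.141 with urushiol (control array 2) and 0.103 with oxazolone (control array 1). Fat cells also use GLUT4, and 7 of 10 measured adipocyte markers fell with urushiol and 8 with oxazolone. Relative to the control mean, the adipocyte mean was -1.76, -1.76 and -1.25 with urushiol and -2.06, -1.70 and -1.74 with oxazolone. On control arrays 1, 2 and 3 it was -0.33, 0.45 and -0.12. The part of fat cells in the fall of Slc2a4 was not tested.

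Pdk4, the kinase that shuts pyruvate dehydrogenase and spares glucose in fasted muscle, had 10.37, 10.17 and 10.08 with urushiol, 8.54, 8.41 and 9.68 with oxazolone and 14.19, 16.95 and 13.94 in control skin. Control array 2 was the high value of its group here, and the 3 groups did not overlap. The Pdk4 differences were -4.82 with urushiol (adjusted p = 0.00937) and -6.15 with oxazolone (adjusted p = 0.00427), with a standard error of 0.78. Fbp2, the muscle fructose bisphosphatase that runs the phosphofructokinase step backwards, had 5.37, 5.30 and 5.64 with urushiol, 5.35, 5.38 and 5.32 with oxazolone and 8.88, 9.98 and 7.37 in control skin. Most dermatitis values of Fbp2 lay below the median of all clusters, which was between 5.53 and 5.64 on the 9 arrays. The Fbp2 differences were -3.31 with urushiol (adjusted p = 0.0115) and -3.39 with oxazolone (adjusted p = 0.0112), with a standard error of 0.57. Both Fbp2 calls were lost in a fit of only the 6 arrays compared (adjusted p = 0.0577 with urushiol and 0.0515 with oxazolone).

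Markers of muscle fibres themselves moved with these enzymes. Of 18 contractile and fibre genes, among them Ttn and the fast myosin gene Myh4, 16 fell with urushiol (median -5.31) and 18 with oxazolone (median -8.54), and none lay below the array median on any array. The myoglobin gene Mb (adjusted p = 0.0521) and the myosin gene Myh2 (adjusted p = 0.0514) were the pair not called with urushiol. Relative to the control mean, the mean of this list was -5.45, -5.49 and -4.85 on the urushiol arrays, -8.15, -9.03 and -7.43 on the oxazolone arrays, and 0.83, 0.84 and -1.67 on the control arrays. The mean of the 10 muscle isoforms of metabolism was -4.65, -4.74 and -4.38 with urushiol, -5.79, -6.08 and -5.47 with oxazolone, and 0.78, 1.11 and -1.90 in control skin. Both means put oxazolone lowest, urushiol next, then control array 3 and then control arrays 1 and 2. None of 6 slow fibre genes was called in either comparison (1 and 0 at an unadjusted limma p under 0.05 with urushiol and oxazolone), and 3 to 5 of the 6 were below the array median on every array. The part of muscle content in the fall of the muscle isoforms was not tested.

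**Figure D3:**
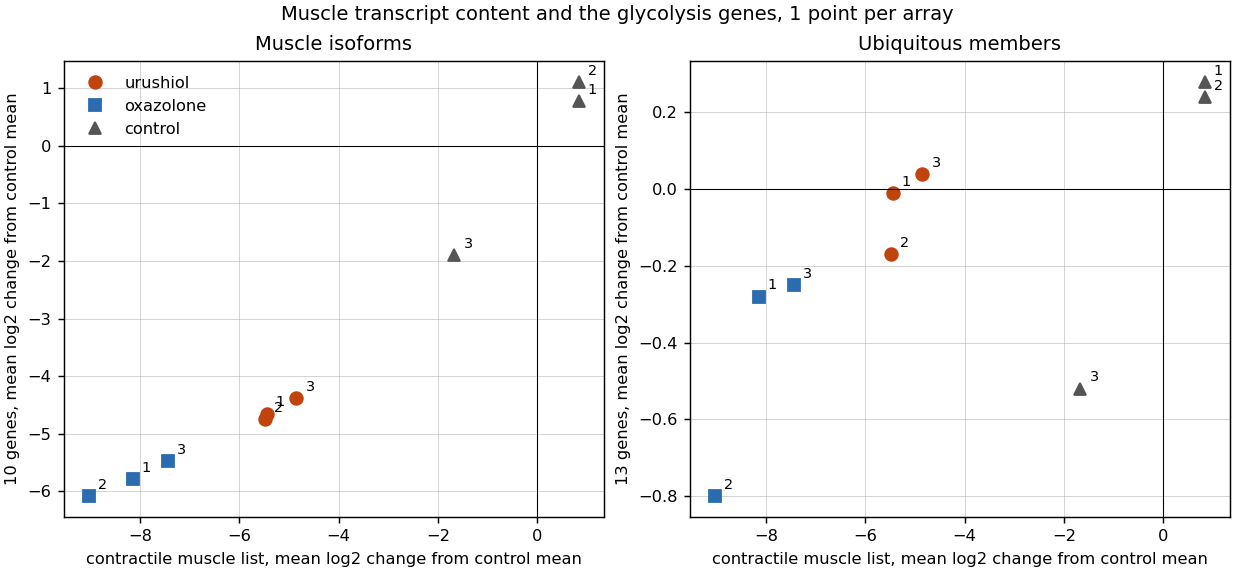
Mean log2 change from the control mean of the 10 muscle isoforms (left) and the 13 ubiquitous members (right) on the vertical axes against that of 18 contractile muscle genes on the horizontal axis, 1 point per array, numbered by replicate. On the left the oxazolone points lie lowest at -6.08 to -5.47, and on the right the urushiol points lie between -0.17 and 0.04 while control array 3 lies at -0.52.

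The ubiquitous members went both ways. With urushiol 4 of 13 rose (Pfkl, Pfkp, Pgam1 and Slc16a1) and 3 fell (Aldoa, Ldhb and Ugp2), and with oxazolone 2 rose (Pgam1 and Slc16a1) and 2 fell (Aldoa and Ugp2). Their median difference was 0.19 with urushiol and -0.10 with oxazolone. Without control array 3 the median was -0.19 with urushiol, on the other side of 0, and -0.64 with oxazolone, and the counts were 4 higher and 3 lower with urushiol and 1 higher and 5 lower with oxazolone, as Tpi1 (adjusted p = 0.0123), Ldha (0.0214) and Ldhb (0.00754) were then called lower and Slc16a1 (0.0564) was no longer called.

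Pgam1, the mutase of most tissues, had 12.58, 12.47 and 12.51 with urushiol, 12.33, 11.37 and 12.54 with oxazolone and 10.72, 10.65 and 11.17 in control skin. Oxazolone array 2 was nearest to control, and neither group overlapped it. The Pgam1 difference was 1.67 ± 0.30 with urushiol (adjusted p = 0.0127) and 1.23 ± 0.30 with oxazolone (adjusted p = 0.0336). The oxazolone call was lost without any 1 of 7 arrays (all but oxazolone array 2 and control array 3), at adjusted p up to 0.11, and the urushiol call without control array 2 (adjusted p = 0.051). Of 3 Pgam1 clusters, 2 shared their annotation with other symbols and were not used, so signal from pseudogene copies was not tested. Slc16a1 encodes MCT1, which carries lactate across membranes. It had 10.51, 10.35 and 10.77 with urushiol, 10.08, 10.30 and 10.29 with oxazolone and 9.48, 9.87 and 9.24 in control skin, with no overlap with control in either group. The Slc16a1 difference was 1.01 ± 0.18 with urushiol (adjusted p = 0.0117) and 0.69 ± 0.18 with oxazolone (adjusted p = 0.0385), and the oxazolone call was lost without any single array but control array 2 (adjusted p up to 0.11, control array 1). That call was also lost under quantile renormalisation (adjusted p = 0.0729), median centring (0.0566) and a block by replicate number in all 9 arrays (0.0689).

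The phosphofructokinases of other tissues rose with urushiol, where Pfkm fell. Pfkl, the liver form, had 8.42, 8.42 and 8.55 with urushiol, 8.19, 7.56 and 8.04 with oxazolone and 7.42, 7.61 and 7.61 in control skin. Pfkp, the platelet form, had 11.01, 11.01 and 11.03 with urushiol, 10.90, 10.19 and 11.01 with oxazolone and 9.98, 10.10 and 10.12 in control skin. In both genes all urushiol values were above control, and oxazolone array 2 lay at or near the control level. Urushiol differences were 0.92 ± 0.16 for Pfkl (adjusted p = 0.0109) and 0.95 ± 0.20 for Pfkp (adjusted p = 0.0209). Oxazolone differences were 0.38 for Pfkl (adjusted p = 0.132) and 0.63 for Pfkp (adjusted p = 0.0685). Without oxazolone array 2 both were called with oxazolone as well (adjusted p = 0.015 for Pfkl and 0.00165 for Pfkp). The Pfkp call with urushiol was lost on leaving out control array 1 or 2 or any urushiol array, at adjusted p up to 0.071 (control array 1).

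Aldoa, the aldolase of muscle and most other tissues, had 10.93, 10.88 and 11.19 with urushiol, 10.35, 9.95 and 10.45 with oxazolone and 12.66, 12.64 and 11.73 in control skin. The 3 groups did not overlap, and oxazolone was lowest. Aldoa fell by 1.34 with urushiol (adjusted p = 0.0183) and by 2.09 with oxazolone (adjusted p = 0.0043), with a standard error of 0.27, and the urushiol call was lost without control array 1 or 2 or urushiol array 1 or 2 (adjusted p up to 0.0664, urushiol array 1). Ldhb, the lactate dehydrogenase subunit of oxidative tissue, had 7.63, 7.44 and 8.16 with urushiol, 7.26, 8.12 and 8.16 with oxazolone and 9.84, 9.73 and 8.46 in control skin. The differences were -1.60 with urushiol (adjusted p = 0.0457) and -1.50 with oxazolone (adjusted p = 0.0549), with a standard error of 0.43. On leaving out any single array but control array 3, the Ldhb call with urushiol was lost (adjusted p up to 0.146, control array 2), as it was with the replicate block in all 9 arrays (adjusted p = 0.0875).

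The remaining ubiquitous enzymes were not called in either comparison. Tpi1, triose phosphate isomerase, had 13.11, 12.56 and 12.77 with urushiol, 12.66, 11.25 and 12.19 with oxazolone and 14.17, 14.03 and 12.33 in control skin. Control array 3 lay within the range of the other groups for Tpi1, and the differences were -0.70 ± 0.55 with urushiol (adjusted p = 0.444) and -1.48 ± 0.55 with oxazolone (adjusted p = 0.109), or -1.29 and -2.07 without control array 3. Gapdh, often used as a reference gene, lay at 18.04 on all 3 urushiol arrays, between 17.88 and 18.04 with oxazolone and between 17.98 and 18.21 in control skin, far above log2 16. Any 2 arrays shared the same value to 0.01 for 9.88% to 20.3% of all genes. The Gapdh differences were -0.04 with urushiol and -0.10 with oxazolone, and another cluster that Gapdh shares with other symbols was not used. Pgk1, Pkm and Ldha, which make ATP, pyruvate and lactate, differed from control by 0.35, 0.21 and -0.09 with urushiol and by -0.10, -0.27 and -0.52 with oxazolone. Without control array 3 these differences were -0.19, -0.28 and -0.46 with urushiol and -0.64, -0.77 and -0.88 with oxazolone, so Pgk1 and Pkm turned sign with urushiol. The Pgk1 cluster used carries an ID of chromosome 12 although the gene lies on X, and its second cluster, with an X ID, had 14.47, 13.77 and 13.99 with urushiol, 14.12, 12.94 and 13.96 with oxazolone and 14.35, 14.06 and 12.78 in control skin. Hk1, the hexokinase of most tissues, differed by 0.19 with urushiol (adjusted p = 0.358) and by 0.02 with oxazolone (adjusted p = 0.924).

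Among the members known as inducible or as myeloid, Slc2a1 and Hk3 rose in both groups, and the other 5 were not called. The class had a median difference of 0.68 with urushiol and 0.73 with oxazolone, or 0.53 and 0.47 without control array 3, and without it Slc2a1 and Hk3 were called higher in both as well. Slc2a1 encodes GLUT1, the glucose transporter of proliferating and activated cells, of keratinocytes among others. Its values were 13.77, 13.85 and 14.00 with urushiol, 13.33, 11.69 and 13.94 with oxazolone, and 9.52, 10.17 and 10.15 in control skin. Every dermatitis value was above every control value, and oxazolone array 2 was the lowest of them. Slc2a1 rose by 3.93 ± 0.53 with urushiol (adjusted p = 0.00497) and by 3.04 ± 0.53 with oxazolone (adjusted p = 0.0124). Leaving out single arrays moved these to between 3.71 and 4.04 with urushiol and between 2.56 and 3.69 with oxazolone, all called. In a fit of only the 6 arrays of the 2 groups compared, the oxazolone call was lost (adjusted p = 0.0555).

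Hk3, a hexokinase of white blood cells, had 6.07, 6.05 and 6.02 with urushiol, 6.25, 6.29 and 6.35 with oxazolone and 5.80, 5.86 and 5.78 in control skin. The 3 groups did not overlap, and oxazolone was highest. All Hk3 values lay close above the median of all clusters, which was between 5.53 and 5.64, near the dim end of the scale. The rise was small, 0.23 ± 0.04 with urushiol (adjusted p = 0.0126) and 0.48 ± 0.04 with oxazolone (adjusted p = 0.00121), and the urushiol call was lost under median centring or quantile renormalisation. Hk2, the hexokinase of muscle and of cells under hypoxia, had 11.47, 12.28 and 12.31 with urushiol, 11.37, 10.67 and 11.85 with oxazolone and 10.75, 11.05 and 9.01 in control skin. Control array 3 was the lowest value, and the differences of 1.75 ± 0.58 with urushiol (adjusted p = 0.0832) and 1.03 ± 0.58 with oxazolone (adjusted p = 0.257) were not called. Without that array they were 1.12 and 0.40. Slc2a3, which encodes the GLUT3 transporter of neurons and leukocytes, had 7.40, 7.34 and 7.31 with urushiol, 8.18, 6.86 and 6.73 with oxazolone and 6.25, 6.50 and 6.25 in control skin. Neither group overlapped control, but oxazolone array 1 stood above its group. The Slc2a3 differences were 1.02 ± 0.35 with urushiol (adjusted p = 0.0951) and 0.92 ± 0.35 with oxazolone (adjusted p = 0.115). Without oxazolone array 1 both were called, at 0.00284 with urushiol and, with a difference of 0.46, at 0.0378 with oxazolone.

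The regulatory kinases and the second lactate exporter were not called. Pfkfb3 and Pfkfb4 make fructose 2,6-bisphosphate, the activator of phosphofructokinase. Pfkfb3 differed by -0.69 ± 0.53 with urushiol and by -1.12 ± 0.53 with oxazolone, and its control values spread between 8.55 on array 3 and 10.54 on array 2, without which the differences were -0.12 and -0.55. Pfkfb4 differed by 0.68 with urushiol (adjusted p = 0.104) and by 0.73 with oxazolone (adjusted p = 0.0837), with a standard error of 0.24. Slc16a3, which encodes the lactate exporter MCT4, differed by 0.08 with urushiol and by -0.07 with oxazolone. Without control array 3 the Slc16a3 difference was -0.28 with urushiol, on the other side of 0, and -0.43 with oxazolone (adjusted p = 0.0304).

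Markers of several cell types were set beside the rise of Slc2a1 and Hk3, those of neutrophils first. Of 14 measured neutrophil markers, 10 rose with urushiol (median 2.52) and 10 with oxazolone (median 2.50). The mean of that list over the control mean was 2.82 to 3.62 on the urushiol arrays, 2.68 to 3.33 on the oxazolone arrays and -0.15 to 0.12 on the control arrays, and 3 to 7 of the 14 lay below the array median in control skin against 2 in the other groups. Of 13 monocyte and macrophage markers 3 rose with urushiol and 2 with oxazolone, and of 11 keratinocyte markers 6 rose and 1 fell with urushiol, and 5 rose and 1 fell with oxazolone. The keratinocyte list mean was 1.72 to 1.90 with urushiol, 1.20 to 1.69 with oxazolone and -0.36 to 0.60 in control skin. Hair follicle markers were called in neither comparison (1 of 19 with urushiol and 16 of 19 with oxazolone at an unadjusted limma p under 0.05), and their mean was 2.36 to 3.02 with urushiol, 2.94 to 5.66 with oxazolone and -1.76 to 3.41 in control skin. Of 17 cell division genes 3 rose with urushiol and 2 with oxazolone, and all 17 differences were above 0 in each comparison, with 16 at an unadjusted limma p under 0.05 in each. The mean of the cell division list was 1.25 to 1.54 with urushiol, 1.30 to 1.36 with oxazolone, and -0.43, -0.75 and 1.18 in control skin, so control array 3 was close to the dermatitis arrays. On control arrays 1, 2 and 3, Slc2a1 had 9.52, 10.17 and 10.15. On the same arrays the hair follicle mean was -1.76, -1.65 and 3.41, and the cell division mean -0.43, -0.75 and 1.18. The part of cell content or cell division in the rise of Slc2a1 and Hk3 was not tested.

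Of the isoforms typical of brain or liver, Pygl fell in both groups and the other 3 were not called. Pygl, the glycogen phosphorylase of liver, had 7.66, 7.70 and 7.83 with urushiol, 7.85, 7.85 and 7.53 with oxazolone and 8.34, 8.37 and 8.20 in control skin. Neither group overlapped control, and the differences were -0.57 ± 0.10 with urushiol (adjusted p = 0.0122) and -0.56 ± 0.10 with oxazolone (adjusted p = 0.0137). The oxazolone call was lost without control array 1 or 2 (adjusted p up to 0.0529, control array 2), and both calls held without control array 3. Pygb, the brain phosphorylase, had 7.99, 8.58 and 8.58 with urushiol, 8.32, 8.58 and 8.58 with oxazolone and 8.58, 8.59 and 9.22 in control skin. It differed by -0.41 with urushiol and -0.30 with oxazolone, with adjusted p of 0.263 and 0.388. These differences rest on 1 array in each group. Control array 3 had the highest Pygb value, 9.22, and without it the differences were -0.20 and -0.09. Aldoc and Eno2, the aldolase and enolase of neurons, differed by at most 0.06 in size: 0.01 and 0.02 with urushiol and -0.06 and 0.00 with oxazolone. Eno2 lay between 5.24 and 5.32 on the 9 arrays, below every array median.

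Where 2 isoforms of a step were measured, the muscle isoform and its counterpart were compared on the same arrays. The difference between their changes is given with a standard error taken from only the 6 arrays compared. The limma standard errors of single genes draw on all 9 arrays, so the 2 kinds are not comparable in size. With 3 arrays in each group, the smallest p of a two-sided exact permutation test is 0.1, and adjustment over the 18 tests gives at least 0.1125, so none could pass the threshold. With urushiol against control, the change of Pgam2 minus that of Pgam1 was -7.50 ± 1.53, and that of Pfkm was -6.83 ± 1.21 against Pfkp and -6.80 ± 1.21 against Pfkl. On the same scale Slc2a4 stood at -6.55 ± 1.05 against Slc2a1, and Pygm at -5.96 ± 1.06 against Pygb and -5.80 ± 0.82 against Pygl. With oxazolone against control, the values were -7.70 ± 1.55 for Pgam2 against Pgam1, -7.85 ± 1.21 for Pfkm against Pfkp and -7.60 ± 1.22 for Pfkm against Pfkl. They were -5.97 ± 1.24 for Slc2a4 against Slc2a1, -9.33 ± 1.14 for Pygm against Pygb and -9.07 ± 0.98 for Pygm against Pygl. All 12 had the exact p of 0.1, with the muscle isoform below its counterpart on every dermatitis array relative to control. Eno3 could not be set against Eno1, which was not measured here.

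**Figure D4:**
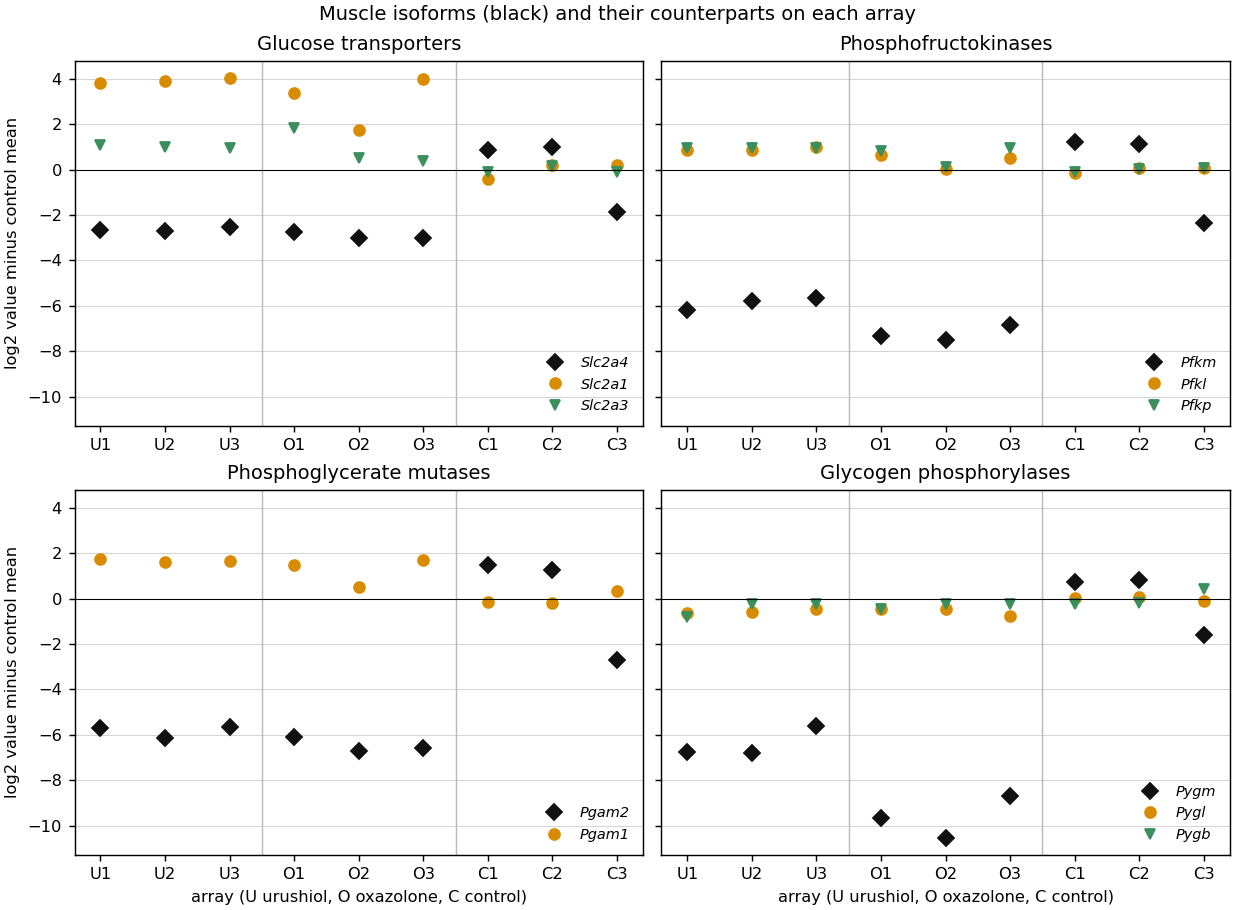
Log2 value minus the control mean (vertical axis) of muscle isoforms (black diamonds) and their counterparts (coloured) on each array (horizontal axis, U urushiol, O oxazolone, C control). On the U and O arrays the diamonds lie below 0 and Slc2a1, Slc2a3 and Pgam1 lie above it, while Pygl and Pygb lie slightly below it.

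Between the allergens, no member was called. In urushiol against oxazolone skin, limma called 0 of 34 members in either direction, where 0.00664% of all genes were higher and 0.00995% lower (0.0166% in all), and 5 members (Hk3, Pygm, Eno3, Pfkl and Aldoa) had an unadjusted p under 0.05. The difference was above 0 for 29 of the 34, with a median of 0.42 beside -0.00 over all genes. Urushiol values lay wholly above oxazolone values for 12 members and wholly below for 1, Hk3, where 5.35% and 4.39% of all genes did so. Pygm was 3.26 ± 0.77 higher with urushiol (limma adjusted p = 0.399) and Eno3 3.06 ± 0.67 higher (adjusted p = 0.344). Pfkl was 0.53 higher (adjusted p = 0.545) and Aldoa 0.75 higher (adjusted p = 0.735), and Hk3 differed by -0.25 ± 0.04 (adjusted p = 0.176). The variance in these limma tests is pooled over all arrays, so the spread of the control arrays enters it. Without control array 3 still no member was called, but limma adjusted p was lower, at 0.069 for Eno3 and 0.129 for Pygm. For Phka1 it went from 0.991 to 0.069 and for Pfkm from 0.984 to 0.117, at unchanged differences of 0.91 and 1.34. All 10 muscle isoforms had a difference above 0, between 0.09 for Fbp2 and 3.26 for Pygm with a median of 0.78, and 12 of 13 ubiquitous members did, with a median of 0.44. Oxazolone array 2 weighs in the latter. Relative to the control mean, the ubiquitous mean was -0.80 on that array and -0.28 and -0.25 on oxazolone arrays 1 and 3. It was -0.17 to 0.04 on the urushiol arrays. Contractile markers were also higher with urushiol, with a median of 2.85 and no overlap for any of the 18, and their part in the differences of the members was not tested.

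Within the isoform pairs, the difference between the allergens was 3.37 ± 0.64 for Pygm against Pygb, 3.27 ± 0.72 for Pygm against Pygl, 1.02 ± 0.22 for Pfkm against Pfkp and 0.81 ± 0.23 for Pfkm against Pfkl, each with the smallest exact p of 0.1. It was 0.20 ± 0.34 for Pgam2 against Pgam1 (exact p = 0.7) and -0.58 ± 0.65 for Slc2a4 against Slc2a1 (exact p = 0.6), and these 2 changed sign on leaving out single arrays.

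The rest of the pathway was read from 77 further measured genes. With urushiol 7 of them rose and 18 fell, where 9.96% of all genes rose and 6.43% fell. With oxazolone 5 rose and 22 fell, where 9.63% of all genes rose and 6.92% fell. Rises were thus no more frequent than over all genes. The medians were -0.13 with urushiol and -0.12 with oxazolone. Among 24 other glycogen genes the deepest falls were those of Ppp1r3c and Ppp1r3a, glycogen targeting subunits of protein phosphatase 1, of Pgm1, which links glycogen to glycolysis, and of Gyg, the primer of glycogen. With urushiol they fell by 5.12 ± 1.17, 4.99 ± 1.0, 3.74 ± 0.87 and 3.02 ± 0.68, and with oxazolone by 6.41 ± 1.17, 8.56 ± 1.0, 4.51 ± 0.87 and 3.40 ± 0.68. The phosphoglucomutase Pgm2 went the other way, at 1.60 ± 0.38 with urushiol and 2.17 ± 0.38 with oxazolone. In this glycogen list 2 genes rose and 9 fell with urushiol, and 3 rose and 10 fell with oxazolone.

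Of 43 other genes of glycolysis and pyruvate use, 2 rose and 9 fell with urushiol and 12 fell with oxazolone. Pdk2, another pyruvate dehydrogenase kinase, fell by 4.93 ± 0.88 with urushiol and 5.41 ± 0.88 with oxazolone. Gpd1, which links glycolysis to fat synthesis, fell by 3.85 ± 0.66 and 4.09 ± 0.66 in the same order. Slc2a12, a glucose transporter, fell by 3.28 ± 0.16 and 3.17 ± 0.16, and Pcx, pyruvate carboxylase, by 1.53 ± 0.29 with urushiol. Slc37a4 fell by 2.26 ± 0.61 with oxazolone. The subunit gene Pdha1 of pyruvate dehydrogenase and the pyruvate carrier gene Mpc1 were lower by -1.45 and -1.03 with urushiol and -1.71 and -1.07 with oxazolone. In the pentose phosphate and sorbitol branches, 3 of 10 rose with urushiol and 2 with oxazolone. Akr1b8, an aldose reductase relative, rose by 4.02 ± 0.33 with urushiol and 3.46 ± 0.33 with oxazolone, Rpe of the pentose phosphate pathway by 0.84 ± 0.20 and 0.95 ± 0.20, and Pgd by 0.48 ± 0.12 with urushiol.

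A list of 22 hypoxia responsive genes was set beside the members. The hypoxia core was held by members that rose, such as Slc2a1 and Pgam1, and by members that fell, such as Pygm, Pfkm and Aldoa. The part of hypoxia in the changes of the members was not tested. With urushiol 11 rose and 2 fell (median 0.90), and with oxazolone 8 rose and 1 fell (median 0.42). Hif1a, the oxygen-regulated factor itself, rose by 2.79 ± 0.19 with urushiol and 2.42 ± 0.19 with oxazolone, and Ero1a, an oxidase of protein folding, by 2.72 ± 0.57 and 2.96 ± 0.57. Egln3, a prolyl hydroxylase that marks the factor for breakdown, rose by 3.14 ± 0.83 with urushiol, and Ndrg1, a stress response gene, by 2.08 ± 0.45 with oxazolone. Cited2, which competes with the factor for its coactivator, was lower by -1.80 ± 0.47 with urushiol and -1.78 ± 0.47 with oxazolone. Vegfa, the vascular growth factor, was not called (0.79 ± 0.45 with urushiol and 0.19 ± 0.45 with oxazolone). No gene of this list or of the 77 was called between the allergens (2 and 6 at an unadjusted limma p under 0.05).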

How the data were processed

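The file holds a log2 value for each transcript cluster on each array, as the authors deposited it. The submitters' processing notes name Affymetrix Expression Console 1.4, RMA and the Transcriptome Analysis Console without saying what each did, and the authors' genome build was not given in the sources used here. RMA normalises arrays to each other, so differences are relative to the bulk of genes. The log2 values run from 2.20 to 19.93. Of 65956 clusters, 30604 had 1 gene symbol, and 827 symbols were updated through RefSeq, which gave 30142 genes. No detection calls are in the file, and the number of arrays limits the precision.

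Groups and replicate numbers came from the sample titles. Group means were compared by limma (version 3.58.1, under R 4.3.3; lmFit and eBayes, a two-sided test) on all 9 arrays together without a block, and p-values were adjusted by Benjamini-Hochberg over the 30142 genes, with a threshold of 0.05, checked on simulated data. Deviations from the group means of same-numbered arrays correlated at 0.201, 0.197 and 0.124 between oxazolone and urushiol. Arrays of different numbers in these groups gave -0.18 to 0.021. With control, same-numbered arrays gave -0.232 to 0.337 and arrays of different numbers -0.29 to 0.285. No label pairs the arrays, so the replicate number is used as a block only in alternative fits. The members, classes, lists and isoform pairs were chosen with earlier results of these data known. Values per array are given for called members that differed by 1 or more and for members just short of the threshold. From the other pathway and hypoxia lists mainly the 4 largest called differences are given. The lists of cell type markers and cell division genes are given mostly by counts, medians and means. Pfkl, Pfkp, Hk3, Pygl, Pygb and the second Pgk1 cluster were given per array, and Pgm2, Pdha1, Mpc1 and Vegfa named, after their values were seen. Promoter windows were searched over the 250 bases before the start, without the transcribed bases that the RefSeq table also holds. Other settings tried were leaving out dim genes, averaging the clusters of a gene, quantile renormalisation, median centring, a trended variance, the 2 groups alone, a block by replicate number, and leaving out each array.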

Additional observations from a re-analysis of the deposited data

How the results depend on the processing

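Every one of the 17 member calls with oxazolone and 20 with urushiol was lost under at least 1 alternative, since the block in 6 arrays called none, and no called value of a member changed sign. In the fit of 6 arrays of the 2 groups alone, 1 member (Hk3) rose and 7 fell with oxazolone (4 and 13 with all 9 arrays). With urushiol 5 fell in it (14 with all 9 arrays). Of the other pathway genes, 3 rose and 4 fell with urushiol in that fit, and 1 rose and 7 fell with oxazolone. With the replicate number as a block in those 6 arrays, 0 members were called in either comparison, and of the other pathway genes 0 were called with urushiol and 1 rose and 2 fell with oxazolone. No label pairs the controls with the other arrays. With the block in all 9 arrays 6 members rose and 10 fell with urushiol, and 3 rose and 13 fell with oxazolone. The block changed no member call between the allergens (0 in each direction).

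Leaving out each array in turn gave 4 to 7 members higher and 7 to 14 lower with urushiol, and 2 to 5 higher and 9 to 17 lower with oxazolone. For the other pathway genes these ranges were 2 to 8 and 4 to 30 with urushiol, and 1 to 8 and 8 to 32 with oxazolone, highest for the falls without control array 3. Between the allergens, leaving out arrays moved Pgam2 against Pgam1 between -0.09 and 0.43 and Slc2a4 against Slc2a1 between -1.09 and 0.02. Quantile renormalisation moved the split over all genes to 2124 higher and 2479 lower with urushiol (3003 and 1939 as deposited), and 2098 and 2828 with oxazolone (2904 and 2085), and called Gapdh lower in both (adjusted p = 0.0116 with urushiol and 0.0151 with oxazolone). No detection calls bound the values of dim members such as Eno2 and Fbp2.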
